A study of Mus musculus with 6 samples.

Results

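Sites called for estrogen receptor alpha (ERα) across the 4 mouse Hox clusters were taken from 6 uterine ChIP-seq peak lists, in windows that hold each cluster and about 50 kb on either side. The windows were set by position alone, in mm9: Hoxa at chr6:52055000-52260000, Hoxb at chr11:96005000-96280000, Hoxc at chr15:102700000-102920000 and Hoxd at chr2:74456000-74653000. A peak belonged to a window when its midpoint lay inside. This gave 138 of the 154923 peaks in all lists. Overlapping peaks of different lists were joined into 57 regions, of 65146 in the whole series. All positions count from 1.

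The uteri came from ovariectomized C57BL/6J females aged 12 weeks, either wild type (WT) or carrying an ERα with a mutated activation function 2 (AF-2), the surface through which the ligand-bound receptor recruits coactivators. ICI (fulvestrant, an ERα antagonist) and tamoxifen (Tam, an antagonist or agonist depending on tissue) were each injected at 2 mg/kg in DMSO, and vehicle mice received 50 µl DMSO. Uteri were taken 1 h later, and those of 6 mice were pooled into 1 library per combination of genotype and treatment. The labels name the mutant AF2ERKI and its controls WT littermates. All 6 titles also carry the code E1h, whose meaning is not stated. Groups are named here by their treatment labels alone. If the code stood for a further agent, all groups, vehicle included, would carry it, and each comparison below would be one made in its presence. With 1 library per group no difference could be tested, the spread between animals is unknown, and intervals below cover counting error only. The lists give positions without height or depth, so a site not called may still be bound below the threshold. Whole uterus mixes epithelium, stroma and muscle, and more cells of a type cannot be told apart from more binding per cell.

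Hox genes encode homeodomain transcription factors that lay out the body axis, and their order along each cluster follows the order of their expression domains from head to tail. In the female reproductive tract the posterior Hoxa genes pattern successive segments: Hoxa9 is known from the oviduct, Hoxa10 from the uterus, Hoxa11 from the uterus and cervix, and Hoxa13 from the cervix and vagina. Hoxa10 and Hoxa11 are required in the adult uterus for implantation and the stromal decidual response, and ovarian steroids are known to regulate both. Hoxd13 and Hoxa13 pattern digits and external genitalia, Hoxb13 acts in the prostate, and Hoxc13 in hair and nail.

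In the RefSeq gene table, which is of another build (GRCm38), the 38 member genes run in these orders along their chromosomes. On chromosome 6, 10 Hoxa members run from Hoxa2, Hoxa3, Hoxa4, Hoxa5, Hoxa6 and Hoxa7 to Hoxa9, Hoxa10, Hoxa11 and Hoxa13. The other clusters run from the posterior genes upward: Hoxb13 and then Hoxb9 to Hoxb1 (10 members), Hoxc13 to Hoxc4 (9 members) and Hoxd13 to Hoxd1 (9 members). Gene positions in mm9 were not used here, so no site is assigned to a gene or called exonic, intronic or intergenic. Places in a window are given as distance from its low-coordinate end.

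Promoter sequences from RefSeq (GRCm38) matched 22 of the 38 members, with 24 promoters reaching from 250 bases before to 50 after a gene start. They were searched on both strands for GGTCA, an arm of the ERα consensus element, read as TGACC where it lies on the opposite strand. This short sequence is called the core motif here, and a match to it alone does not single out ERα. The motif was present in 12 of the 24 promoters, beside 40.5% of all 32851 promoters of the same length. All 9 Hoxd members were matched, by 10 promoters, of which 7 had the motif. These belonged to Hoxd13, Hoxd12, Hoxd10, Hoxd8, Hoxd4, Hoxd3 and Hoxd1, but neither to Hoxd11 nor to Hoxd9. Of the 9 matched Hoxa members, 3 had one: Hoxa5, Hoxa9 and Hoxa11. The promoters listed for Hoxa10 had none. Only 3 of the 10 Hoxb members and 1 of the 9 Hoxc members were matched, and of these Hoxb4 and Hoxc4 had one. The clusters can therefore not be ranked by this motif. The full consensus element, GGTCA and then TGACC with 3 bases between, was in 0 of the 24 and in 0.0700% of all promoters.

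Hoxa11, a uterine implantation gene, had the closest arrangement to the consensus: the core motifs faced each other with 2 bases between, an arrangement found in 0.0974% of all promoters. That spacing was looked for after the sequence was seen. The 250 bases before its start are shown because they carry this pair, with core motifs in capitals, in the direction of transcription (minus strand).
Hoxa11: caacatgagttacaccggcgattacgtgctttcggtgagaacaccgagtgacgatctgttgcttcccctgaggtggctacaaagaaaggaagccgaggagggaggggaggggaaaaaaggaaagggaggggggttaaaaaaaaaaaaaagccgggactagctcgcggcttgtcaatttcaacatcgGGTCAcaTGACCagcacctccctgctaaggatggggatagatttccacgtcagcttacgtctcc

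The core motifs of the Hoxd promoters are shown with up to 13 bases on either side, in the direction of transcription (plus strand), because this cluster also held the most ERα regions. Such a match is a description of letters, and whether ERα sat on any of these promoters cannot be read from the lists without mm9 gene positions.
Hoxd13: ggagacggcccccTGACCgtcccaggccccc
Hoxd12: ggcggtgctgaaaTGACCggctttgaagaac
Hoxd10: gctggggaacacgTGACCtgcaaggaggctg
Hoxd8: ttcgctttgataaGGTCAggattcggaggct
Hoxd4: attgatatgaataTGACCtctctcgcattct
Hoxd3 (first): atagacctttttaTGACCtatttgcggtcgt
Hoxd3 (second): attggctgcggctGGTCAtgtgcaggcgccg
Hoxd1: gcccTGACCgctgcatccctcg

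ERα peaks were several times more frequent after either ligand than with vehicle in the Hox windows of both genotypes. Wild-type uteri had 35 Hox peaks after ICI, 27 after tamoxifen and 3 after vehicle, and mutant uteri had 35, 32 and 6 in that order. In the wild type, the ICI count was 11.7 times that of vehicle (95% counting interval 3.68 to 59.3) and the tamoxifen count 9.0 times (2.77 to 46.4). Mutant counts were 5.83 times those of vehicle after ICI (2.43 to 17.0) and 5.33 times after tamoxifen (2.20 to 15.6). The whole lists had ratios of 7.13, 10.1, 9.12 and 7.27 in the same order, all inside those wide intervals.

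Among the ligand lists, the ratios of Hox counts differed from those of the whole lists most where wild-type ICI entered. Mutant and wild-type ICI had equal counts of 35 peaks, a ratio of 1.00 (0.608 to 1.65), though only 19 regions were common to both; by contrast, the whole mutant ICI list was 1.73 times as long as the wild-type one. In the wild type, ICI had 1.30 times the tamoxifen number (0.762 to 2.23), against 0.709 for the whole lists. Both of these genome-wide ratios lie outside the counting interval of the Hox ratio. In the mutant, ICI had 1.09 times the tamoxifen number (0.658 to 1.82), against 1.25 for the whole lists. Mutant tamoxifen had 1.19 times the wild-type number (0.688 to 2.06), against 0.979. Neighbouring peaks are not independent, so these intervals are too narrow to serve as a test.

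**Figure D1:**
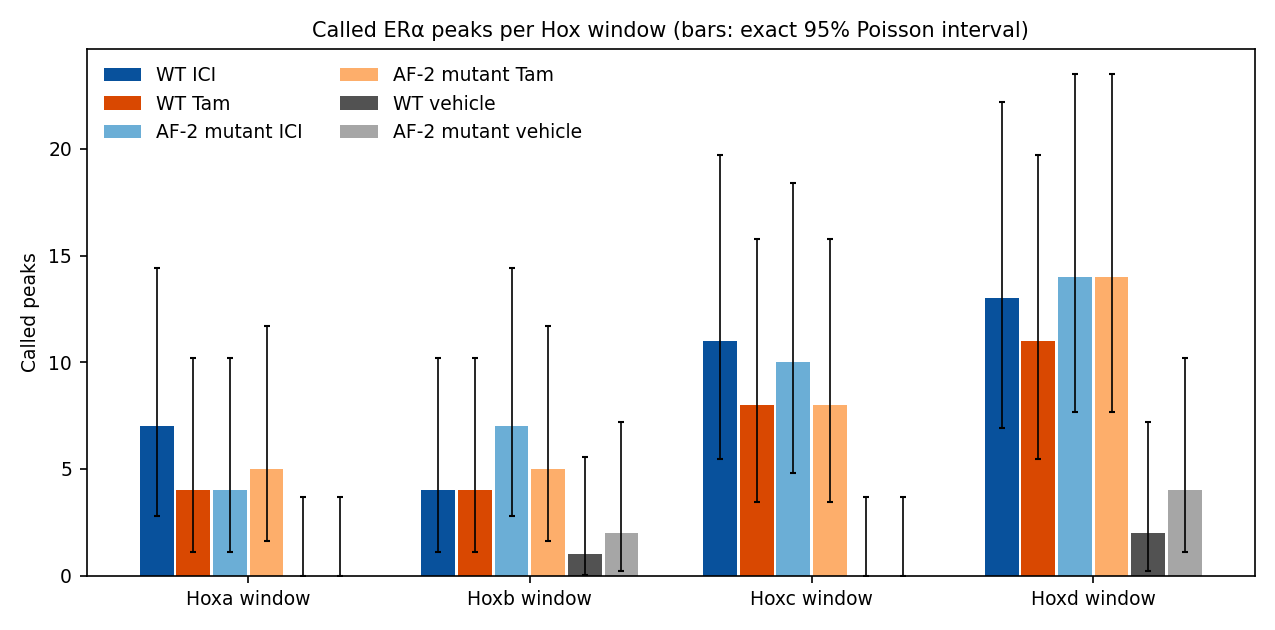
Called ERα peaks (y axis) in each Hox window (x axis) for the 6 libraries, 1 library per bar, with exact 95% Poisson intervals. The Hoxd window is highest for every library, at 11 to 14 peaks with a ligand, and the Hoxa and Hoxc windows have 0 vehicle peaks. The median vehicle count is also 0 among windows of the same lengths that hold a peak of any list.

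By list, the Hox windows took 0.132% of wild-type ICI peaks (0.0921 to 0.184), the largest share of the 4 ligand lists. The shares were 0.0723% for wild-type tamoxifen (0.0477 to 0.105), 0.0764% for mutant ICI (0.0532 to 0.106) and 0.0876% for mutant tamoxifen (0.0599 to 0.124). Vehicle shares were 0.0808% in the wild type (0.0167 to 0.236) and 0.119% in the mutant (0.0438 to 0.260). Per length, peaks were 3.89 times (2.71 to 5.40) as dense in the Hox windows as in the whole list for wild-type ICI. For the other ligand lists the density ratio was 2.13 (1.40 to 3.09) for wild-type tamoxifen, 2.24 (1.56 to 3.12) for mutant ICI and 2.57 (1.76 to 3.63) for mutant tamoxifen. Mutant vehicle was near wild-type ICI at 3.51 (1.29 to 7.63), and wild-type vehicle was at 2.37 (0.490 to 6.94).

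The clusters differed in number of regions: Hoxd held 20 regions in 197 kb, Hoxc 15 in 220 kb, Hoxb 12 in 275 kb and Hoxa 10 in 205 kb. In peak counts, Hoxd and then Hoxc also came first in each ligand list, while Hoxa and Hoxb had no fixed order. Wild-type ICI had 7 peaks in Hoxa, 4 in Hoxb, 11 in Hoxc and 13 in Hoxd. Wild-type tamoxifen had 4, 4, 8 and 11 in that order. Mutant ICI had 4, 7, 10 and 14, and mutant tamoxifen 5, 5, 8 and 14.

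Among windows of the Hoxd length laid end to end over the genome, only those with a peak of any list were counted. Of these 9667 windows, 0.776% had at least as many wild-type ICI peaks and 2.94% as many mutant tamoxifen peaks. For mutant ICI and wild-type tamoxifen the Hoxd count was reached in 5.50% and 6.12% of such windows. Hoxc ranked lower, its counts being reached in 2.48% of windows of its length for wild-type ICI and in 16.9% to 17.6% for the other ligand lists. For Hoxa the count was reached in 10.8% of windows for wild-type ICI and in 32.3% to 50.0% for the others. Hoxb counts were reached in 37.3% to 52.9% of windows for all 4 ligand lists. Among windows with a peak, the Hoxb counts thus lay near or somewhat above the middle, and so did those of Hoxa apart from wild-type ICI. Windows with no peak of any list were left out throughout, and counting them would lower all these shares.

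**Figure D2:**
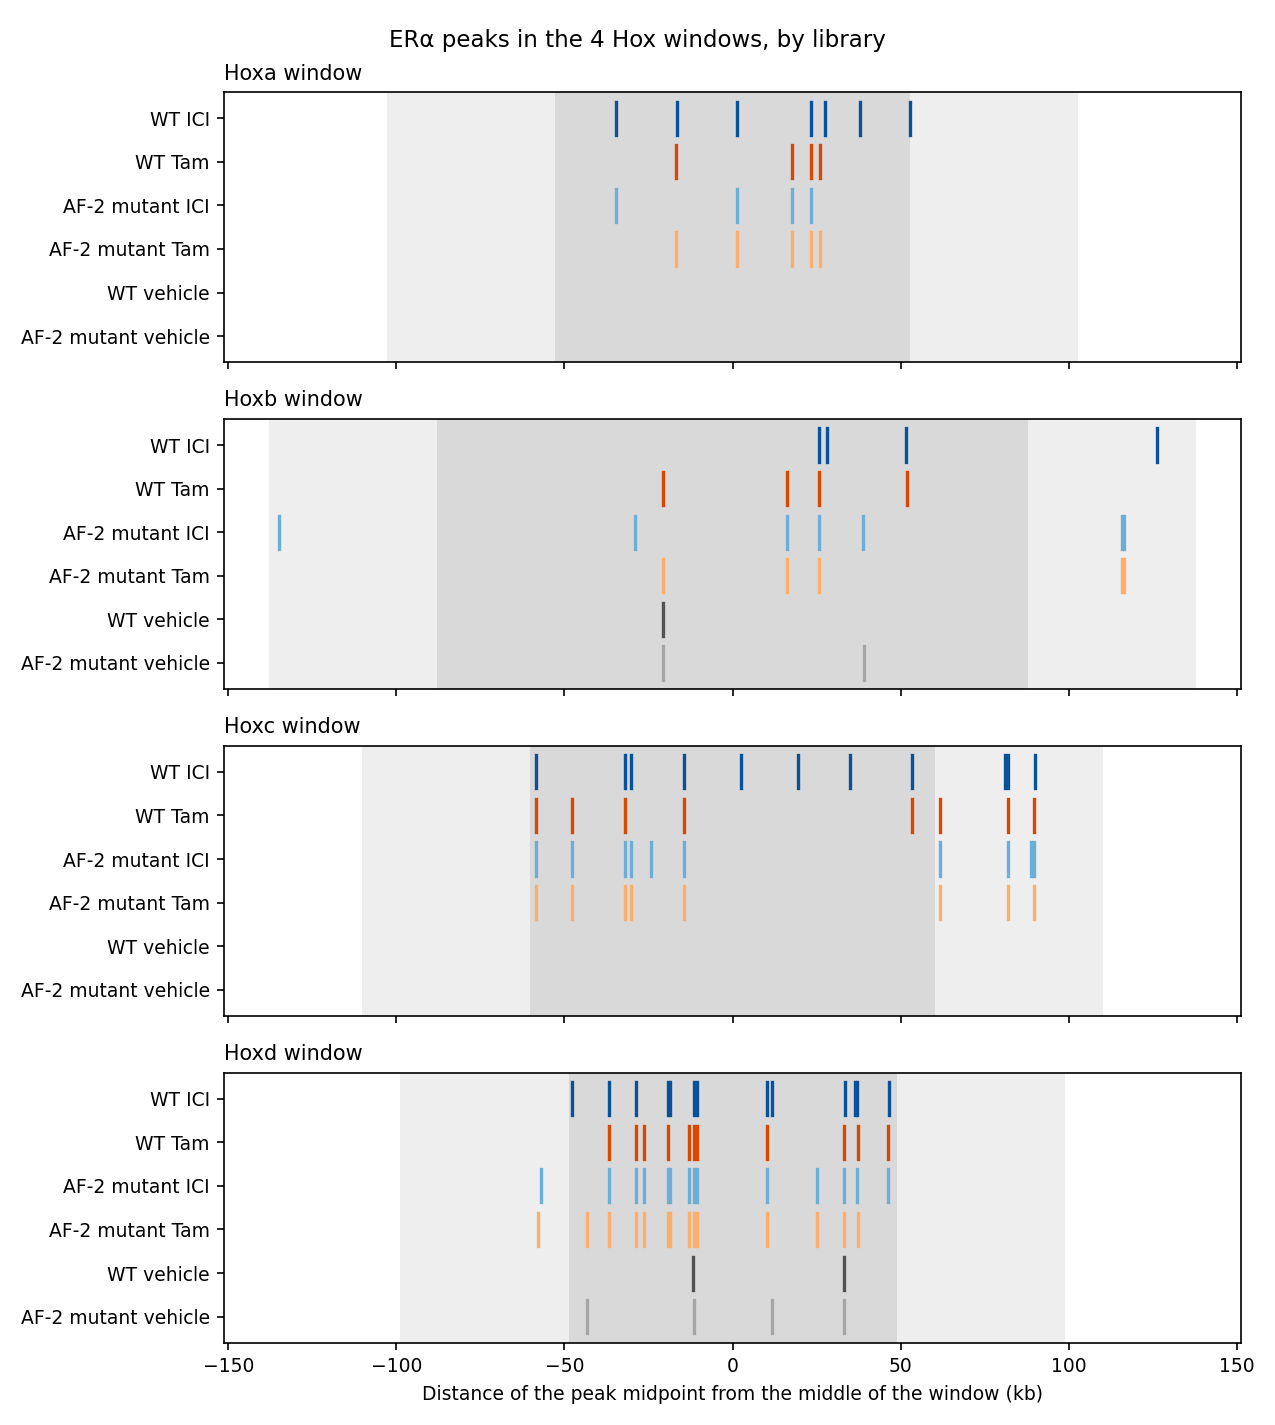
Each tick is a peak midpoint, placed by its distance in kb from the middle of the window (x axis, increasing with the coordinate), in 1 row per library. Dark grey marks the inner part and light grey the outer 50 kb on either side; Hoxd peaks fill the inner part, and Hoxc has a stretch in which wild-type ICI alone has peaks.

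Within the windows, regions lay mostly in the inner part that remains after 50 kb is taken off each end. It held 45 of the 57 regions in 497 kb, or 90.5 per Mb, while the outer parts held 12 in 400 kb, or 30 per Mb. The contrast was largest in Hoxd, with 18 inner regions in 97 kb (186 per Mb) and 2 outer ones (20 per Mb). In Hoxa, 9 of 10 regions were inner, and the last lay 155.2 kb from the low end, just past the inner limit. Hoxc had 10 inner and 5 outer regions, and all 5 outer ones were at the high-coordinate end. Hoxb had 8 inner and 4 outer regions, at densities of 45.7 and 40 per Mb that hardly differed. Between neighbouring regions, its longest gap ran 105.5 kb, from 96007731 to 96113250, whereas the longest such gap in the other windows was between 17.6 and 20.6 kb. Those windows had longer empty stretches at their ends. The first Hoxa region began 67.6 kb from the low end and the last ended 49.7 kb short of the high end. The corresponding stretches were 51.5 and 20 kb in Hoxc and 40.7 and 51.7 kb in Hoxd, against 2.53 and 11.1 kb in Hoxb.

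Regions called in all 4 ligand lists numbered 15 of 57, or 26.3% (15.5 to 39.7), beside 23.8% of all regions with a ligand peak in the series. Of these, 8 were in Hoxd, 5 in Hoxc, 1 in Hoxa and 1 in Hoxb. The Hoxd sites were chr2:74517563-74517782, chr2:74525619-74525821, chr2:74535190-74535490, chr2:74542755-74543051, chr2:74543821-74544062, chr2:74564689-74564924, chr2:74587646-74588001 and chr2:74591475-74591801, all between 61.7 and 135.6 kb from the low end. They included 3 neighbours in the stretch from 74535190 to 74544062, with 2 regions of fewer lists between them. In Hoxc the sites were chr15:102751484-102751731, chr15:102777777-102778000, chr15:102795430-102795657, chr15:102891926-102892181 and chr15:102899530-102899957. The first of these lay near the low end of the inner part and the last pair in the outer 50 kb at the high end. Hoxa had chr6:52180639-52180856 and Hoxb had chr11:96168123-96168366.

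A vehicle list held 6 of the 57 regions, or 10.5% (3.96 to 21.5), beside 11.7% of all regions. All 6 also held a ligand peak, which is common over the series. There, 79.4% of wild-type vehicle regions were in the wild-type tamoxifen list and 62.8% of mutant ones in the mutant tamoxifen list. These were the ligand lists most often shared. Each share counts 1 list alone, so the share with a peak of any of the 4 ligand lists is at least as high. The 6 Hox regions are too few to set apart. Hoxd had 4 of the 6 vehicle-held regions and Hoxb 2. The Hoxa and Hoxc windows had 0 peaks in either vehicle list, which allows up to 3.69 peaks per window and list. Among windows of the same lengths with a peak of any list, the median was also 0 for both vehicle lists. An empty vehicle window is therefore not particular to Hoxa and Hoxc. The Hoxd sites chr2:74542755-74543051 and chr2:74587646-74588001 were called in all 6 lists. Across the series, 459 regions had that pattern. At chr11:96121632-96121868, both vehicle and both tamoxifen lists had a peak and neither ICI list did, a combination held by 18 regions in the series. The other 3 had a mutant vehicle peak and 1 ligand peak: chr11:96181257-96181591 with mutant ICI, chr2:74510952-74511312 with mutant tamoxifen and chr2:74566056-74566269 with wild-type ICI. So all 3 wild-type vehicle peaks were also mutant vehicle sites, and the mutant list had 3 more. Over the series, 29.5% of wild-type vehicle regions were also in the mutant vehicle list and 21.8% of mutant ones in the wild-type list; with 3 and 6 Hox regions the shares here are loose. Among windows of its length with a peak of any list, the Hoxd vehicle count was reached in 6.68% for the wild type (2 peaks) and in 1.03% for the mutant (4 peaks). The Hoxb vehicle count was reached in 36.6% of windows of its own length for the wild type (1 peak) and in 16.3% for the mutant (2 peaks).

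Both genotypes shared a ligand-bound site in 29 of the 57 regions, or 50.9% (37.3 to 64.4), close to the 50.6% of all ligand regions. A further 17 were called with a ligand in the wild type alone, 29.8% (18.4 to 43.4) beside 19.7% in the series, and 11 in the mutant alone, 19.3% (10 to 31.9) beside 29.7%. These classes look at ligand lists only. The wild-type number rested on 1 library: without the wild-type ICI list, 2 of 42 ligand regions were of the wild type alone (4.76%, beside 13.9% in the series) and 15 of the mutant alone (35.7%, beside 37.1%). By cluster, Hoxa had 0 mutant-alone and 4 wild-type-alone regions of 10, and Hoxb 5 and 4 of 12. Hoxc had 2 and 5 of 15, and Hoxd 4 and 4 of 20. The mutant-alone share ranged from 0% (0 to 30.8) in Hoxa to 41.7% (15.2 to 72.3) in Hoxb. In every cluster the intervals of both shares held the series values, so these counts do not set the clusters apart.

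In 3 of the 57 regions both mutant ligand lists had a peak and no other list did, 5.26% beside 9.57% of all regions: the close pair chr11:96258289-96258520 and chr11:96258856-96259095, 335 bp apart in the outer part of the Hoxb window, and chr2:74579466-74579720. The converse, both ligand lists of the wild type and no other list, was met once (1.75%, beside 2.83%), at chr15:102863174-102863503, where the ICI and tamoxifen midpoints lay at bases 100 and 230 of the region. Mutant ICI alone held 5 regions, 2 each in Hoxb and Hoxc and 1 in Hoxd. All ligand lists except wild-type tamoxifen held 3 regions, 1 each in Hoxa, Hoxc and Hoxd (5.26%, beside 2.21%). At chr2:74600523-74600748 wild-type tamoxifen was paired with mutant ICI (1.75%, beside 5.25%). Counts of 1 to 3 regions are too few to set these shares apart from those of the series. Wild-type tamoxifen alone held chr11:96194243-96194442 and mutant tamoxifen alone held chr2:74496655-74496854.

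The tamoxifen lists of the genotypes shared 24 Hox regions, 88.9% of the 27 of the wild type and 75.0% of the 32 of the mutant. Over the series the corresponding shares were lower, at 64.2% and 65.6%; the difference was not tested. Of these, 2 in Hoxa were called in both tamoxifen lists and no other, chr6:52140472-52140679 and chr6:52183450-52183690, a pattern held by 630 regions in the series. The reverse pattern, both ICI lists and no other, was the more frequent over the series, at 933 regions, and was met once here, at chr6:52122627-52122884 in Hoxa, the lowest region of that window. Mutant tamoxifen and mutant ICI shared 27 regions, 84.4% and 77.1% of each list, beside 85.7% and 68.3% in the series.

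As shares of its own regions, wild-type ICI overlapped each other ligand list less in these windows than over the series, a difference that was not tested. It shared 19 of its 35 Hox regions with mutant ICI (54.3%, beside 73.1% in the series), 18 with mutant tamoxifen (51.4%, beside 66.8%) and 16 with wild-type tamoxifen (45.7%, beside 72.4%). As shares of the other list's Hox regions these overlaps were 54.3% of mutant ICI, 56.2% of mutant tamoxifen and 59.3% of wild-type tamoxifen, each above its series value of 42.2%, 48.4% and 51.3%. Held by no other list were 14 of its 35 regions, 40% (23.9 to 57.9), beside 15.4% of all wild-type ICI regions. For the other ligand lists the share was at or below that of the series: 1 of 27 for wild-type tamoxifen (3.70%, beside 16.5%), 5 of 35 for mutant ICI (14.3%, beside 17.8%) and 1 of 32 for mutant tamoxifen (3.12%, beside 9.02%). Of the 51 Hox regions with an ICI peak of either genotype, 29 also had a tamoxifen peak, or 56.9% (42.2 to 70.7), beside 74.2% in the series. The regions without a tamoxifen peak included those 14 of wild-type ICI alone, so the lower share is not a separate observation. Mutant ICI shared 77.1% of its Hox regions with mutant tamoxifen (68.3% in the series) and 62.9% with wild-type tamoxifen (60.8%). In every ligand list except wild-type ICI were 6 regions, 10.5% beside 12.0%. These comparisons were picked after the values were seen.

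**Figure D3:**
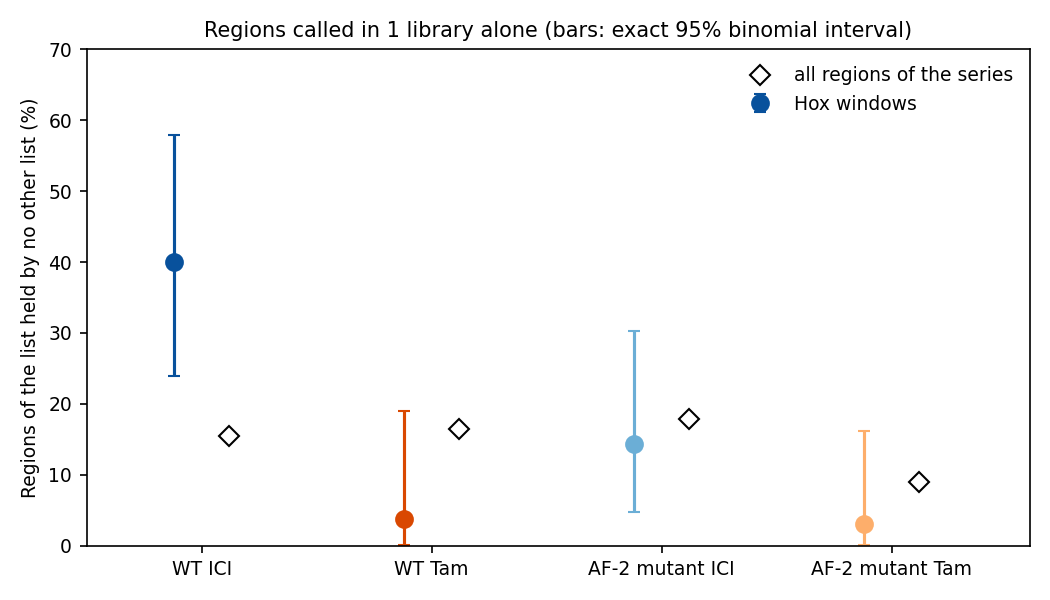
Share of each ligand list's regions that no other list held (y axis, percent), for the Hox windows (filled circles with exact 95% binomial intervals) and for all regions (open diamonds). Wild-type ICI is at 40% in the Hox windows and 15.4% over the series, while the other 3 lists lie between 3.12% and 14.3% in the Hox windows.

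Regions of wild-type ICI alone were found in every cluster, and are named here after their values were seen. Hoxa had chr6:52140995-52141194, chr6:52184806-52185005, chr6:52195425-52195624 and chr6:52210100-52210299, so that the upper end of the called sites in that window was of this list alone. In Hoxc, chr15:102812415-102812614, chr15:102829461-102829660 and chr15:102844724-102844923 followed each other at 112.5, 129.6 and 144.8 kb from the low end, with no peak of another list between them, and chr15:102891088-102891287 lay further up. Hoxb had chr11:96170637-96170836, chr11:96193994-96194193 and chr11:96268747-96268946, and Hoxd had chr2:74506597-74506796, chr2:74590958-74591157 and chr2:74601068-74601267. Among windows of the same length with a peak of any list, at least 4 such regions were found in 0.416% for Hoxa and 0.599% for Hoxc. At least 3 were found in 3.88% for Hoxb and 2.13% for Hoxd. Of the 14 regions, 5 lay within 1 kb of another region (35.7%, 12.8 to 64.9), beside 31.9% for all regions of wild-type ICI alone. The closest was chr11:96193994-96194193, 49 bp from the wild-type tamoxifen region.

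At shared sites the wild-type ICI midpoint was also placed less evenly, in the Hox windows and over the series. In the 15 regions of all 4 ligand lists, its distance from the median midpoint of the other 3 had a median of 24 bp and reached 204 bp. It exceeded 50 bp in 4 regions (26.7%), beside 8.68% of all such regions. The 4 were chr15:102899530-102899957 at 204 bp, chr2:74587646-74588001 at 155 bp, chr2:74591475-74591801 at 121 bp and chr2:74535190-74535490 at 87 bp. The corresponding medians were 8 bp for wild-type tamoxifen, 9 bp for mutant ICI and 10 bp for mutant tamoxifen, with 0 regions over 50 bp. Over the series those 3 lists exceeded 50 bp in 3.63% to 4.15% of regions and reached 284 to 336 bp. The series medians were 15 bp for wild-type ICI and 10 bp for each of those 3 lists. A larger distance for wild-type ICI was therefore not particular to the Hox windows. How far library depth or peak height bears on these differences was not tested, since the lists hold neither.

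**Figure D4:**
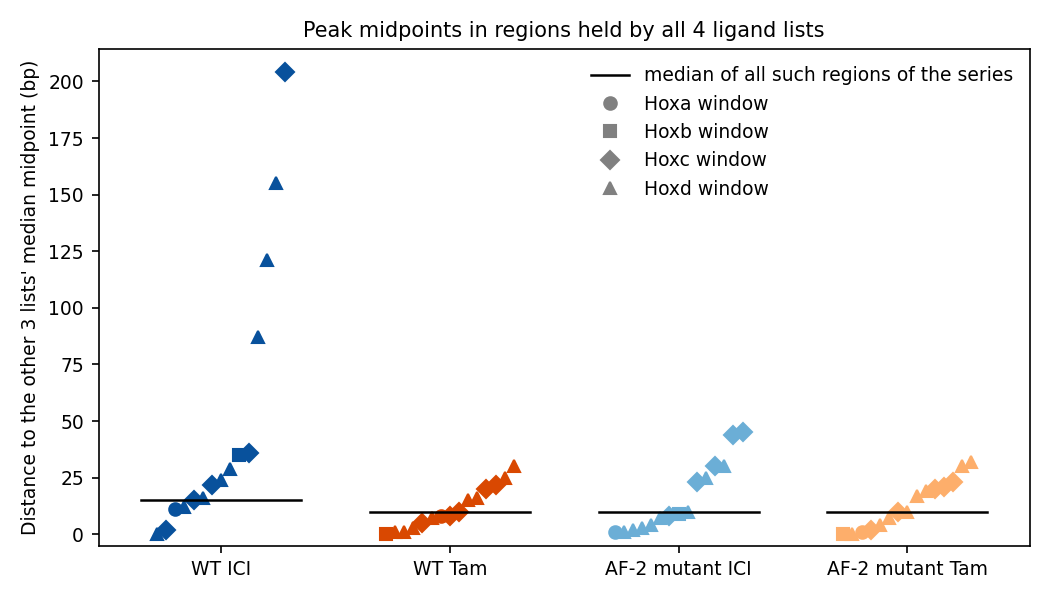
Each point is 1 of the 15 Hox regions held by all 4 ligand lists, placed by the distance in bp (y axis) between a list's midpoint and the median midpoint of the other 3; points are sorted by distance within a list and shaped by window. Wild-type ICI has 4 points over 50 bp, up to 204 bp, and the other lists have 0.

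Just outside the windows, Hoxc had 4 further regions within 25 kb beyond its high end. The nearest, chr15:102924185-102924384, lay 4.284 kb outside and was of mutant tamoxifen alone. The other 3 were in all 4 ligand lists: chr15:102931340-102931552, chr15:102931926-102932137 and chr15:102938508-102938724, of which chr15:102931340-102931552 also held a wild-type vehicle peak. Below the low end of Hoxb, 2 regions of wild-type ICI alone lay 0.116 and 2.162 kb outside, and 1 lay 11.31 kb above Hoxd. Hoxa had 1 region within 25 kb, with wild-type tamoxifen and mutant ICI peaks.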

How the data were processed

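ERα ChIP-seq was made on 6 libraries of pooled mouse uteri, 1 per combination of genotype and treatment, and the authors deposited 1 peak list for each. The deposited values are positions only; every peak is 200 bp wide, and no depth, height or p-value comes with them. The submitters' processing notes name HOMER 4.10.3, bedtools 2.24.0, Bowtie2 2.1.0, Picard and SAMtools, with build mm9; the role of each, the thresholds and any input are not stated there. These set how many sites a list holds.

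From the lists, regions (peaks joined by 1 bp of overlap), counts per window and shares were computed with Python 3.11.15, numpy 2.4.6 and scipy 1.17.1. Ratios of counts and shares have exact 95% binomial intervals, counts exact Poisson ones. Intervals of density ratios scale the Poisson limits of the Hox count and take the density of the whole list as fixed. Density used chromosomes 1 to 19 and X up to the last peak end. End-to-end windows were counted where any list had a peak. Midpoint distances used regions with 1 peak per list. Region joining was run on simulated lists whose sites lay far apart and whose peaks always overlapped. That check does not cover close neighbours or widely shifted midpoints. No test across libraries was possible.

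Regions named are those of all 4 ligand lists, of a vehicle list, or of both ligands in 1 genotype and no list of the other; others named were chosen after their values were seen. The members and lists were chosen with earlier results of these data known.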

Additional observations from a re-analysis of the deposited data

Results flagged for a closer look

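The Hoxa window was the only one of the 4 in which the order of ICI and tamoxifen reversed between genotypes. Hoxb was tied in the wild type (4 and 4) and Hoxd in the mutant (14 and 14). Besides Hoxa, only Hoxc thus had an order in both genotypes, with more ICI peaks in each. In Hoxa the ICI list exceeded the tamoxifen list by 3 peaks in the wild type (7 against 4). The difference was -1 in the mutant (4 against 5). Seen the other way, mutant minus wild type was -3 with ICI and 1 with tamoxifen. No test was made, each value being from 1 library, and the intervals of all 4 counts overlap. Of the 7 wild-type ICI peaks here, 4 were in no other list, and the other 3 fell on sites that a mutant list also held.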

How the results depend on the processing

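Assigning peaks by 1 bp of overlap changed no count in the windows. Trimming or widening the windows by 25 kb a side moved all 6 library totals by less than 1.5 times, to 33 and 41 for wild-type ICI and 26 and 31 for wild-type tamoxifen. For single windows, trimming took Hoxb from 7 to 4 peaks for mutant ICI and from 5 to 3 for mutant tamoxifen, and widening gave Hoxc 1 wild-type vehicle peak. Joining peaks by 100 bp of overlap, or within 500 or 1000 bp, gave 12, 15 and 14 regions of all 4 ligand lists against 15. Over the series those numbers were 14778, 15302 and 15142 against 15144. The same settings gave 18, 10 and 9 Hox regions of wild-type ICI alone against 14. Over the series they gave 4671, 3127 and 2829 against 4091, so the number also fell there with wider joining. These settings were chosen for this count after the data were seen, and 9 is below 14 by more than 1.5 times. Joining within 1000 bp merges neighbours by construction. Without the wild-type ICI list, also chosen afterwards, 2 regions were of the wild type alone against 17, and 15 of the mutant alone against 11. All remaining ligand lists held 21 of the 42 regions left, 50% beside 38.4% in the series. Dropping a list from that requirement cannot lower the count. Limits of 40 and 60 kb in place of 50 kb left 8 and 18 regions in the outer parts, against 12. Counts of 0 to 14 peaks per window set the precision, and read depth is unknown. No paired analysis was possible because each group has 1 library and the labels give no replicate numbers.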
